A study of Mus musculus with 6 samples.

Results

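DNA replication genes were examined in adrenal glands of mice in which the Hippo pathway kinases MST1 and MST2 were targeted in steroid-producing cells. The set was a list of 40 gene symbols. Its members were picked by name and not by a measured value, but with earlier results of these data known. For each gene the brightest probe set with a single gene symbol was used. Of the 40 genes 39 had a probe set, out of 19505 genes in all, each of the 39 had exactly 1, and Mcm7 was not analysed here. Mutant females (n = 3) carried floxed alleles of both kinase genes together with the Nr5a1-Cre transgene, Mst1flox/flox;Mst2flox/flox;Nr5a1-cre in the labels' notation. Control females (n = 3) carried the same floxed alleles without the transgene, Mst1flox/flox;Mst2flox/flox. Animals were 2 months old, had been genotyped from tail tissue and were chosen at random within their genotype, and RNA of whole frozen glands was hybridised to Affymetrix whole-transcript arrays, 1 array per animal. Nr5a1-Cre acts in steroid-producing cells, whereas a whole gland also holds chromaffin, vascular, capsular, immune and fat cells, so a value here is an average over all of these. Whether the transgene acted in any of the other cell types was not measured here.

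Chromosomal DNA is copied once per cell cycle. The origin recognition complex, with Cdc6 and Cdt1, loads the ring-shaped MCM helicase onto DNA in G1, and Cdc45, the GINS complex and Mcm10 turn the loaded ring into a working helicase at the start of S phase. Polymerase alpha with primase lays down primers, replication factor C places the sliding clamp PCNA, polymerases delta and epsilon extend the strands, and Fen1 and Lig1 finish the lagging strand. Cyclin E and the E2F factors drive entry into S phase, and many replication genes are textbook E2F targets. In the adult adrenal cortex, dividing cells lie mainly in the outer cortex and the capsule supplies progenitors.

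Promoters are shown for genes of the list that carry exact E2F-type motifs near the start site and for others that do not, since transcription of this list is known to be tied to E2F. RefSeq promoter windows of GRCm38.p6, 250 bases before to 50 bases after a gene's start, were available for 31 of the 39 genes, with 35 windows in all. The genes not matched to a window were Ccne2, Gins1, Gins2, Gins4, Mcm4, Pole, Prim2 and Rfc2. Sequences are given 5′ to 3′ in the direction of the gene, and capitals mark each match to an E2F-type motif, TTTCCCGC, TTTCGCGC, TTTGCCGC or TTTGGCGC on either strand. Mcm3 (chr1:20820263-20820562, minus strand) held 2 matches downstream of its start, and Mcm6 (chr1:128359656-128359955, minus strand) held 3, of which a pair on opposite strands overlapped. Cdt1 (chr8:122567765-122568064, plus strand) held 1, whereas Prim1 (chr10:128014965-128015264, plus strand) and Pcna (chr2:132253131-132253430, minus strand) held 0 in this window.
Mcm3: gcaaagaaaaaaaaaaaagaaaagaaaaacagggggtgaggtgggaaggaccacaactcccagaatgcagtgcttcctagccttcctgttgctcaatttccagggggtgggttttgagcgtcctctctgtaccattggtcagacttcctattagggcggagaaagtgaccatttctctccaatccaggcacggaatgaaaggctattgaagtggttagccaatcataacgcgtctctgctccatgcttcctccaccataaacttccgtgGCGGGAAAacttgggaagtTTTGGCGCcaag
Mcm6: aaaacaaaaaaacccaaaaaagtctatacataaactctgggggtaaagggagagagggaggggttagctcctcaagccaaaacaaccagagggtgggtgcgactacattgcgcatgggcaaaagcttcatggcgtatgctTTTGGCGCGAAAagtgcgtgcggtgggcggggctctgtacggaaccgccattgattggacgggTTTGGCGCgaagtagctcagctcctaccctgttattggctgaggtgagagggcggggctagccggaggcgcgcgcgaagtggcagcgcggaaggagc
Cdt1: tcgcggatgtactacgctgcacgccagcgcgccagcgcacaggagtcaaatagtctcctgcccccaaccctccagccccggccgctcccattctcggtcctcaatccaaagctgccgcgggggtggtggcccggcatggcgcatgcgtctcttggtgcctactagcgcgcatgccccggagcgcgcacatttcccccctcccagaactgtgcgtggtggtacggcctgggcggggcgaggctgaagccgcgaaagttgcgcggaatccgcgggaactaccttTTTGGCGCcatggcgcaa
Prim1: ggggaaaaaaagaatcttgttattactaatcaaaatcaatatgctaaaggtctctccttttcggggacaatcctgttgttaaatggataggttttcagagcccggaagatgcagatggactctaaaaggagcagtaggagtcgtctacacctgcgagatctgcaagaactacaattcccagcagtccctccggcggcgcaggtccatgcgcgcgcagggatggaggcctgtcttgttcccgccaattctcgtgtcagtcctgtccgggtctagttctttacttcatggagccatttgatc
Pcna: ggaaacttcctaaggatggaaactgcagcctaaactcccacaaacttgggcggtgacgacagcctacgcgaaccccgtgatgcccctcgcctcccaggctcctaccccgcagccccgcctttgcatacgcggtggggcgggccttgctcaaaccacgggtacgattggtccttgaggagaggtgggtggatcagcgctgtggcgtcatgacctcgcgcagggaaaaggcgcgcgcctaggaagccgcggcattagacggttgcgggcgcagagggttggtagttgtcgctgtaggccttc

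An exact E2F-type motif lay in the windows of 11 of 31 genes of the list (35.5%), and in those of 575 of 17492 protein-coding genes with a window (3.29%). By window, it was in 11 of 35 windows of the list (31.4%) and in 744 of all 32851 windows (2.26%). The 11 genes were Mcm3, Mcm5, Mcm6, Orc1, Cdc6, Cdt1, Gins3, Rfc3, Pola1, Pold1 and Lig1. A CCAAT box (letters CCAAT, either strand) lay in the windows of 19 of the 31 genes (61.3%), against 42.3% of protein-coding genes. A motif of the CHR type, which is known from genes of late cell cycle phases (TTTGAA or TTCGAA, either strand), lay in those of 5 of the 31 genes (16.1%), against 20.2% of protein-coding genes. Other genes of the replication machinery held an E2F-type motif in 11 of 32 cases (34.4%), a share close to that of the list. In a list of mitosis genes the same search found CHR-type motifs in 17 of 21 genes (81.0%) and an exact E2F-type motif in 1 of 21 (4.76%). Among genes with a window, the 11 with an E2F-type motif had higher means in mutants in 8 cases and lower in 3 (median log2 change 0.17), and the 20 without had 13 higher and 7 lower (median 0.09), given as a description without a test. These matches describe the letters of a short window and are not evidence of binding, and a window without a match says nothing about E2F.

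No gene of the list passed the test in mutant glands. Of the 39 genes, 26 had higher and 13 lower means in mutants than in controls, and 0 passed an adjusted p of 0.05 in either direction. The smallest adjusted p was 0.431 (limma, Benjamini-Hochberg over 22206 probe sets). Over all probe sets 16 passed, or 0.0721%, with 0.054% higher and 0.018% lower, a share so low that 0 of 39 does not set the list apart. At an unadjusted p under 0.05 there were 2 genes of the list (5.13%), the primase subunits Prim1 and Prim2, both higher, and 0 lower, against 10.4% of all probe sets, of which 5.42% were higher and 4.96% lower. The median log2 change of the 39 genes was 0.17, beside -0.01 over all probe sets. It was 0.087 without mutant 2, and 48% of all probe sets had a change above 0. Changes ran from -0.41 for Ccne1 to 0.65 for Prim1, with SEs from 0.14 to 0.32. Leaving out 1 animal moved the change of 34 of the 39 genes by over 1.5 times, and turned its sign for 8. In bulk tissue, fewer cells of a type and less RNA per cell cannot be told apart.

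Intervals were read for genes above the background range, which spans the mean log2 signals of probe sets for background (2.60 to 7.20), since a signal within it sets no limit on a change. The 95% interval of the change, from limma's moderated variance and taken gene by gene, lay between a 2-fold fall and a 2-fold rise for 21 of the 25 genes above that range in both groups. Of the 39 genes 13 were within the range in both groups, as were 11654 of all 22206 probe sets. Over all 39 genes the interval lay between those bounds for 35, against 89.2% of all probe sets. The exceptions were Prim1, Mcm3 and Pola2, whose intervals reached past a 2-fold rise (upper bounds 1.22, 1.22 and 1.05 log2 units), and Ccne1, whose interval reached past a 2-fold fall (lower bound -1.15). Within 1.5-fold either way lay 9 of those 25 intervals and 13 of all 39, against 43.6% of all probe sets. With 3 animals per group, smaller changes of most of these genes could not be told from 0.

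**Figure D1:**
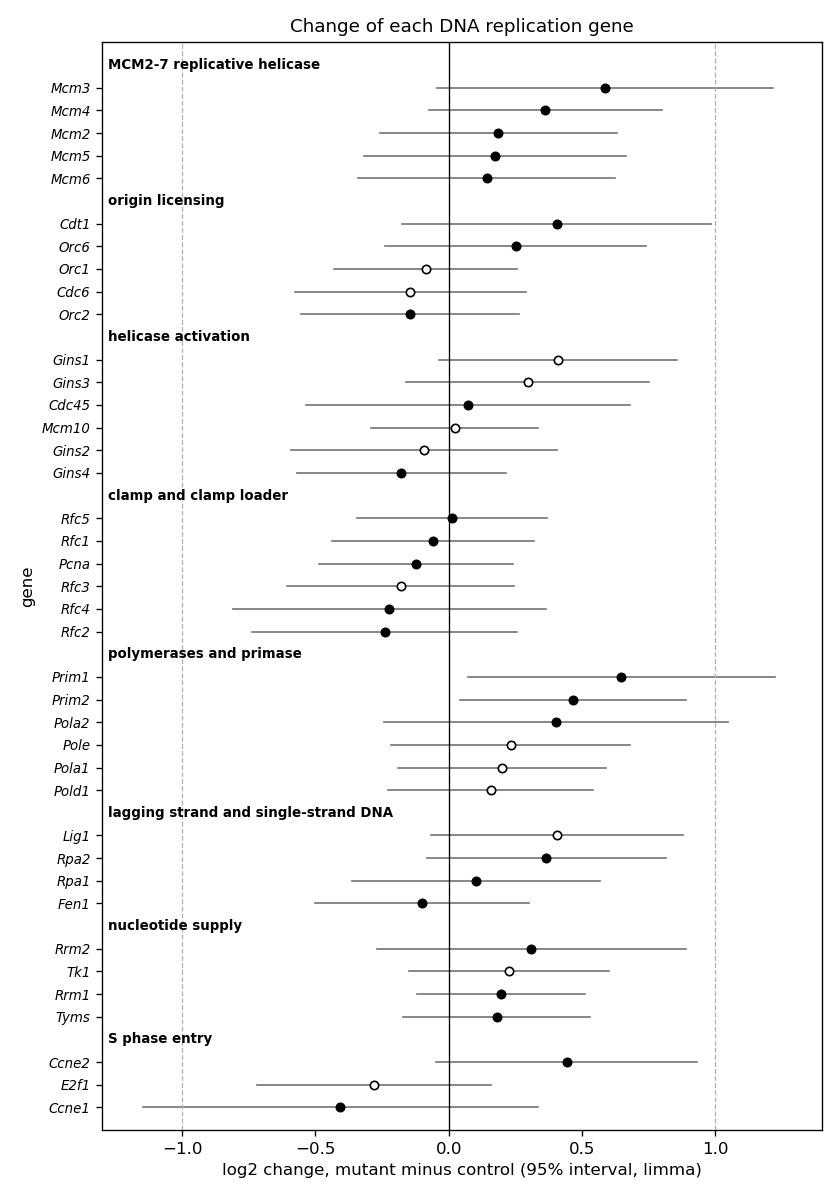
Log2 change of each DNA replication gene, mutant minus control, with its 95% interval from limma (n = 3 animals per group), grouped by role. Open circles mark genes whose mean signals were as low as those of background probe sets in both groups, dashed lines mark a 2-fold change, and 0 genes passed an adjusted p of 0.05.

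Genes of the MCM helicase, the ring that unwinds DNA ahead of the fork, all had higher means in mutant glands, and 0 of 5 passed. Mcm3 had log2 signals of 10.30, 9.93 and 9.18 in mutants 1, 2 and 3, against 9.00, 9.35 and 9.30 in controls 1, 2 and 3 (log2 change 0.59, SE 0.27, limma adjusted p = 0.516). Mutants 1 and 2 lay above every control, but mutant 3 lay below controls 2 and 3, so the groups overlapped. The Mcm3 change was 0.34 without mutant 1 and 0.90 without mutant 3, neither of which passed. Mcm4 measured 9.14, 8.92 and 8.61 in mutants 1, 2 and 3, against 8.59, 8.71 and 8.28 in controls 1, 2 and 3 (log2 change 0.36, SE 0.19, limma adjusted p = 0.568). Its mutant 3 lay below control 2. Mcm2 measured 10.86, 10.98 and 10.49 in mutants 1, 2 and 3, against 10.62, 10.82 and 10.33 in controls 1, 2 and 3 (log2 change 0.19, SE 0.19, limma adjusted p = 0.797), and in both groups animal 3 was the lowest. Mcm5 and Mcm6 had log2 changes of 0.17 (SE 0.21) and 0.14 (SE 0.21). Averaged over the 5 genes, log2 signals were 9.70, 9.70 and 9.27 in mutants 1, 2 and 3, against 9.34, 9.38 and 9.07 in controls 1, 2 and 3, so mutant 3 lay below controls 1 and 2.

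Genes that load the helicase onto origins showed no common direction, with 2 higher and 3 lower means and 0 of 5 past the test. Cdt1, the loading factor that geminin holds in check after S phase has begun, measured 8.33, 7.84 and 7.87 in mutants 1, 2 and 3, against 8.13, 7.23 and 7.48 in controls 1, 2 and 3 (log2 change 0.40, SE 0.25, limma adjusted p = 0.643). Control 1 lay above mutants 2 and 3. Cdc6, the ATPase that recruits the helicase to the origin complex, measured 5.70, 5.34 and 5.68 in mutants 1, 2 and 3, against 5.46, 6.002 and 5.69 in controls 1, 2 and 3 (log2 change -0.14, SE 0.19, limma adjusted p = 0.847), and in both groups its mean lay in the background range, as did that of Orc1. Log2 changes of the origin complex subunits Orc1, Orc2 and Orc6 were -0.09 (SE 0.15), -0.15 (SE 0.18) and 0.25 (SE 0.21).

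Genes that convert the loaded ring into an active helicase were likewise mixed, with 4 higher and 2 lower means, and 4 of the 6 were within the background range in both groups. Gins1, a subunit of the GINS complex, had log2 signals of 5.38, 5.64 and 5.42 in mutants 1, 2 and 3, against 4.93, 5.44 and 4.83 in controls 1, 2 and 3 (log2 change 0.41, SE 0.19, limma adjusted p = 0.525). Gins3, another subunit, measured 6.53, 7.15 and 7.06 in mutants 1, 2 and 3, against 6.50, 6.79 and 6.56 in controls 1, 2 and 3 (log2 change 0.30, SE 0.20, limma adjusted p = 0.674). Both genes were dim, and in both the groups overlapped: control 2 lay above mutants 1 and 3 for Gins1 and above mutant 1 for Gins3. The remaining subunits Gins2 and Gins4 had changes of -0.09 (SE 0.22) and -0.18 (SE 0.17), the opposite sign, so the 4 subunits of this 1 complex did not share a direction. Cdc45, which joins GINS and MCM in the active helicase, had a change of 0.07 (SE 0.26) with control 3 the highest of the 6 animals, and the scaffold Mcm10 had a change of 0.02 (SE 0.14).

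The clamp and the genes of its loader had lower means in mutant glands in 5 of 6 cases, and 0 passed. Pcna, which encodes the clamp and had the highest signal of any probe set of the list, measured 14.50, 14.35 and 14.52 in mutants 1, 2 and 3, against 14.63, 14.75 and 14.36 in controls 1, 2 and 3 (log2 change -0.12, SE 0.16, limma adjusted p = 0.844). Mutant 2 was lowest and control 2 highest of the 6 animals, and its 95% interval ran from -0.49 to 0.24. The loader subunits had log2 changes of -0.06 (SE 0.17) for Rfc1, -0.24 (SE 0.22) for Rfc2, -0.18 (SE 0.19) for Rfc3, -0.22 (SE 0.26) for Rfc4 and 0.01 (SE 0.16) for Rfc5. The sign of Rfc5 turned when arrays were weighted, quantile-normalized or set to one median, and without mutant 1 or control 3. Without control 2 there were 2 higher and 4 lower means among the 6 genes. Their median change was -0.15 with all animals and -0.03 without control 1. The group means of these 6 genes by animal were 9.52, 9.48 and 9.30 in mutants 1, 2 and 3, against 9.75, 9.62 and 9.33 in controls 1, 2 and 3.

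Primase and polymerase genes had the largest median change of the role groups, 0.32, with 6 of 6 means higher in mutants and 0 past the test. Without mutant 1 the median was 0.18, below the 0.24 of the MCM genes, and without control 2 it was 0.28, below their 0.30. Prim1, the catalytic primase subunit that makes the RNA primer, measured 9.36, 9.58 and 8.77 in mutants 1, 2 and 3, against 8.90, 8.63 and 8.24 in controls 1, 2 and 3 (log2 change 0.65, SE 0.25, limma adjusted p = 0.431, 95% interval 0.07 to 1.22). Mutants 1 and 2 lay above every control, and control 1 lay above mutant 3. Prim2, the larger subunit that carries an iron-sulfur cluster, measured 8.64, 8.31 and 8.02 in mutants 1, 2 and 3, against 7.83, 7.96 and 7.78 in controls 1, 2 and 3 (log2 change 0.47, SE 0.19, limma adjusted p = 0.441, 95% interval 0.04 to 0.89). Here every mutant lay above every control. Over the alternatives tried, the adjusted p of Prim1 ran from 0.264 to 0.646 and that of Prim2 from 0.257 to 0.708 (limma). Pola2, the regulatory subunit of polymerase alpha, measured 10.05, 9.89 and 8.94 in mutants 1, 2 and 3, against 9.40, 9.11 and 9.16 in controls 1, 2 and 3 (log2 change 0.40, SE 0.28, limma adjusted p = 0.688). Mutants 1 and 2 were the highest animals and mutant 3 the lowest of all 6. Pola1, the catalytic subunit of polymerase alpha, had the lowest signal of the list and measured 5.48, 5.03 and 5.16 in mutants 1, 2 and 3, against 5.15, 5.04 and 4.88 in controls 1, 2 and 3 (log2 change 0.20, SE 0.17, limma adjusted p = 0.748), which is within the background range. Pold1 and Pole, the catalytic subunits of polymerases delta and epsilon, were also within that range in both groups, with changes of 0.16 (SE 0.17) and 0.23 (SE 0.20).

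**Figure D2:**
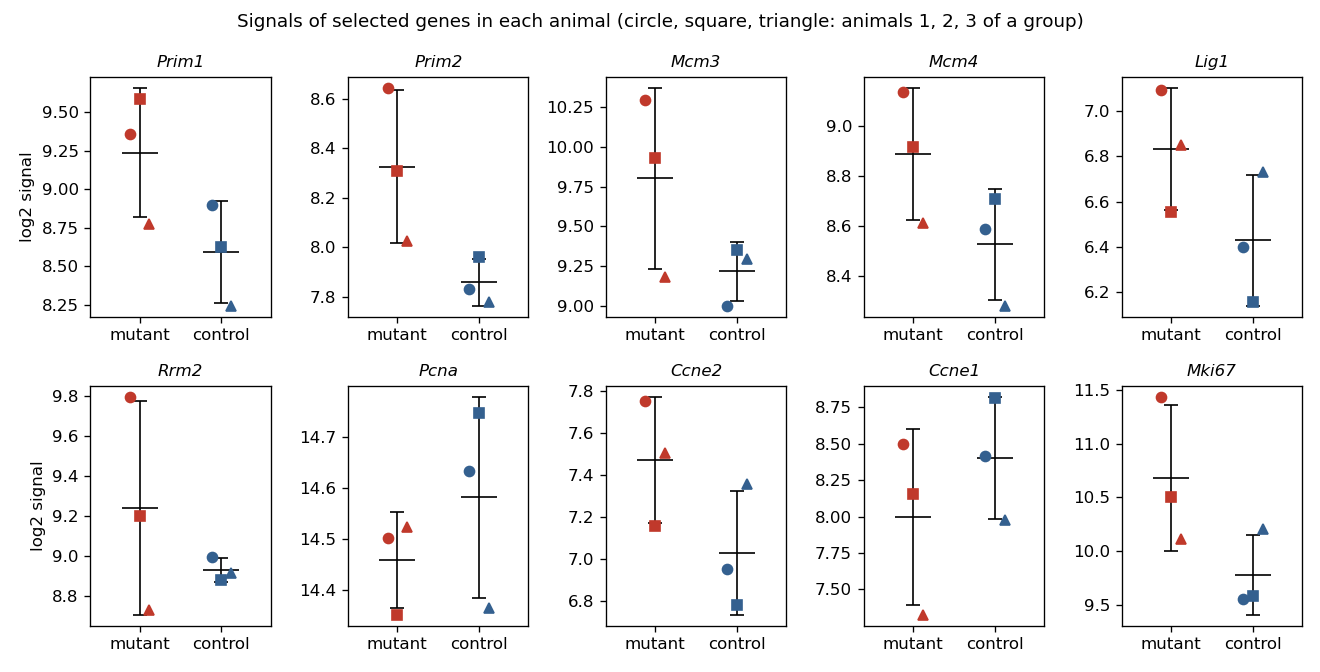
Log2 signals of 9 DNA replication genes and of the proliferation marker Mki67 in each animal, mutant left of control. Symbols are animals, horizontal bars are group means and error bars are SD (n = 3 each), each panel has its own axis that does not start at 0, and only for Prim2 do the groups not overlap.

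Among genes for the lagging strand and single-stranded DNA 3 of 4 means were higher, and 0 passed. Lig1, the ligase that seals Okazaki fragments, measured 7.09, 6.56 and 6.85 in mutants 1, 2 and 3, against 6.40, 6.15 and 6.73 in controls 1, 2 and 3 (log2 change 0.41, SE 0.21, limma adjusted p = 0.548). Control 3 lay above mutant 2, and both group means were within the background range. Rpa2, a subunit of the protein that coats single-stranded DNA, measured 8.07, 8.13 and 7.96 in mutants 1, 2 and 3, against 8.08, 7.58 and 7.41 in controls 1, 2 and 3 (log2 change 0.37, SE 0.19, limma adjusted p = 0.573). Control 1 lay above mutants 1 and 3, while controls 2 and 3 lay below every mutant. Its partner Rpa1 had a change of 0.10 (SE 0.20), and Fen1, the flap endonuclease, a change of -0.10 (SE 0.18).

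All 4 genes for supply of deoxynucleotides had higher means in mutant glands, by 0.18 to 0.31 log2 units, and 0 passed. Rrm2, the small subunit of ribonucleotide reductase that cells make in S phase, measured 9.80, 9.20 and 8.73 in mutants 1, 2 and 3, against 9.00, 8.88 and 8.92 in controls 1, 2 and 3 (log2 change 0.31, SE 0.25, limma adjusted p = 0.736). The 3 controls lay close together, and the mutants spread on both sides of them, mutant 1 highest and mutant 3 lowest. The Rrm2 change was 0.03 without mutant 1 and 0.57 without mutant 3. Rrm1, the large subunit, measured 11.10, 11.13 and 10.98 in mutants 1, 2 and 3, against 10.88, 10.91 and 10.83 in controls 1, 2 and 3 (log2 change 0.20, SE 0.14, limma adjusted p = 0.688), and its groups did not overlap. This gene was named after its values were seen. Tyms, thymidylate synthase, measured 9.46, 9.29 and 9.48 in mutants 1, 2 and 3, against 9.42, 9.13 and 9.14 in controls 1, 2 and 3 (log2 change 0.18, SE 0.15, limma adjusted p = 0.751). Tk1, the cytosolic thymidine kinase, measured 6.19, 6.29 and 5.995 in mutants 1, 2 and 3, against 6.15, 5.81 and 5.83 in controls 1, 2 and 3 (log2 change 0.23, SE 0.16, limma adjusted p = 0.699), within the background range. For Tyms and Tk1 the highest control lay above the lowest mutant. Prim2 and Rrm1 were thus the 2 genes of 39 (5.13%) whose groups did not overlap, both higher in mutants, against 8% of all probe sets higher and 16.4% in either direction.

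The regulators of S phase entry did not share a direction. Ccne1, encoding cyclin E1, measured 8.50, 8.16 and 7.33 in mutants 1, 2 and 3, against 8.42, 8.81 and 7.98 in controls 1, 2 and 3 (log2 change -0.41, SE 0.32, limma adjusted p = 0.727). Mutant 3 was the lowest and control 2 the highest of the 6 animals, and the other 4 were intermingled. Its change was -0.07 without mutant 3 and -0.20 without control 2. Ccne2, encoding cyclin E2, measured 7.75, 7.16 and 7.50 in mutants 1, 2 and 3, against 6.95, 6.78 and 7.35 in controls 1, 2 and 3 (log2 change 0.44, SE 0.21, limma adjusted p = 0.532). Control 3 lay above mutant 2. E2f1, the activator E2F whose own gene is under E2F control, measured 4.99, 5.47 and 5.23 in mutants 1, 2 and 3, against 5.71, 5.59 and 5.23 in controls 1, 2 and 3 (log2 change -0.28, SE 0.19, limma adjusted p = 0.679), within the background range. Mutant 1 was the lowest and control 1 the highest animal, mutant 3 and control 3 had the same value at this precision, and mutant 2 lay between the controls.

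Averaged over the list, the groups overlapped. Mean log2 signals of the 39 genes were 8.31, 8.27 and 8.07 in mutants 1, 2 and 3, against 8.18, 8.09 and 8.01 in controls 1, 2 and 3, or 8.22 ± 0.13 in mutants and 8.09 ± 0.09 in controls (SD, n = 3 each). Mutant 3 therefore lay below controls 1 and 2. It was the lowest mutant for 20 of 39 genes, above every control for 9 and below every control for 11, whereas mutant 1 was above every control for 17 and below for 6, and mutant 2 above for 16 and below for 3. Among controls, control 3 was the lowest for 22 of 39 genes and control 1 the highest for 19. Without mutant 3 an unadjusted p under 0.05 was reached by 6 genes of the list, without mutant 1 by 1, and in each case 0 passed after adjustment. Of the 25 genes above the background range in both groups 17 had higher means, with a median change of 0.17, and of the 13 within it in both groups 8 had, with a median of 0.16. Ccne2 was within it in controls alone.

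**Figure D3:**
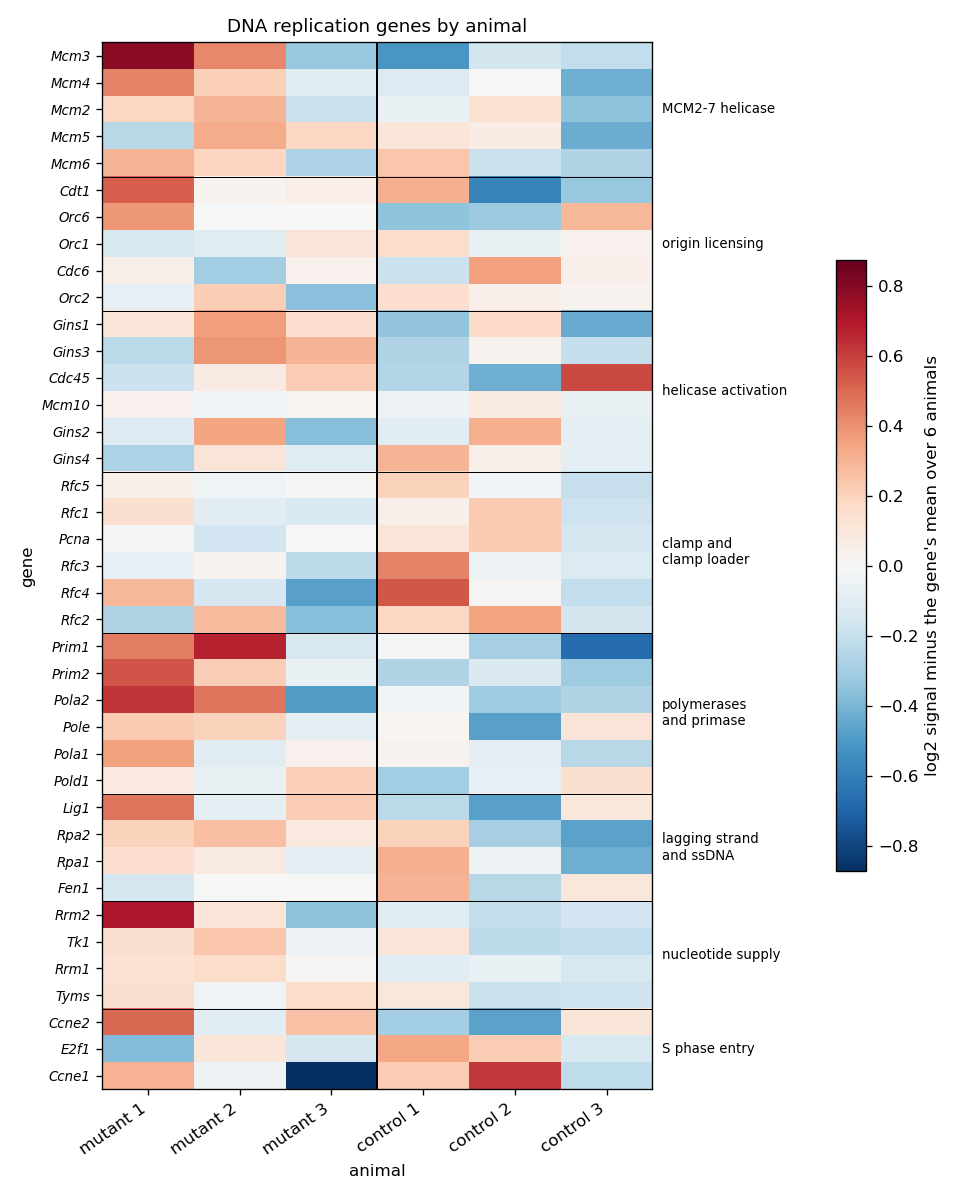
Log2 signal of each of 39 DNA replication genes in each animal, as the difference from that gene's mean over the 6 animals (colour scale), with mutants left of controls and genes grouped by role. Mutants 1 and 2 are the highest animals for Mcm3, Mcm4, Pola2 and Prim1, and mutant 3 lies within or below the controls for each of these.

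Other genes of the replication machinery, a list of 39 chosen by function, gave no call either. Of the 37 measured, 16 had higher and 21 lower means, with a median log2 change of -0.02, and 0 rose and 0 fell past the test. Pold3, Top1 and Chaf1b were named for the smallest unadjusted p of this list, and the lists that follow were treated alike. Pold3, an accessory subunit of polymerase delta, had log2 signals of 9.92, 9.97 and 9.91 in mutants 1, 2 and 3, against 9.72, 9.49 and 9.56 in controls 1, 2 and 3 (log2 change 0.34, SE 0.14, limma adjusted p = 0.462), and its groups did not overlap. Top1, the topoisomerase that relieves torsion ahead of the fork, measured 13.50, 13.37 and 13.67 in mutants 1, 2 and 3, against 14.09, 13.68 and 13.88 in controls 1, 2 and 3 (log2 change -0.37, SE 0.17, limma adjusted p = 0.492), also without overlap. Chaf1b, a subunit of the chromatin assembly factor that follows the fork, had a change of 0.48 (SE 0.22), and Top2a, the topoisomerase of dividing cells, 0.19 (SE 0.27), with both Top2a means within the background range. With Pole4, a small subunit of polymerase epsilon that was named after its values were seen (change -0.25 (SE 0.14)), 3 of 37 genes of this list (8.11%) did not overlap between groups, against 16.4% of all probe sets.

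Of 17 genes for E2F factors, pocket proteins and cyclin regulators, 11 had higher and 6 lower means, with a median change of 0.16, and 0 passed. Tfdp2, a dimer partner of E2F factors, measured 12.94, 12.94 and 12.74 in mutants 1, 2 and 3, against 12.35, 12.36 and 12.24 in controls 1, 2 and 3 (log2 change 0.56, SE 0.14, limma adjusted p = 0.238). Every mutant lay above every control. Fbxw7, the ubiquitin ligase subunit that targets cyclin E for destruction, measured 7.11, 6.93 and 7.10 in mutants 1, 2 and 3, against 7.36, 7.70 and 7.62 in controls 1, 2 and 3 (log2 change -0.52, SE 0.15, limma adjusted p = 0.315), with every mutant below every control and the mutant mean within the background range. Cdc25a, the phosphatase that activates cyclin-dependent kinases, had a change of 0.45 (SE 0.17). Groups did not overlap for 3 higher and 1 lower of these 17 genes (23.5%), against 16.4% of all probe sets. At an unadjusted p under 0.05 there were 5 higher and 1 lower of these 17 genes (35.3%), against 10.4% of all probe sets. The higher ones numbered 1 without mutant 2 or control 2, 2 without mutant 1 and 2 with the replicate number as a block.

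Mitosis genes stood beside the replication genes with larger changes, and none of these passed either. Of 24 measured, 22 had higher and 2 lower means in mutants, the median log2 change was 0.50, and 0 passed, the smallest adjusted p being 0.341 (limma). Mki67, a marker of cycling cells, measured 11.43, 10.50 and 10.11 in mutants 1, 2 and 3, against 9.55, 9.58 and 10.21 in controls 1, 2 and 3 (log2 change 0.90, SE 0.34, limma adjusted p = 0.410). Control 3 lay above mutant 3. Kif20a, a kinesin of cytokinesis, had a change of 0.70 (SE 0.22), the mitotic cyclin Ccnb2 0.70 (SE 0.23) and the kinesin Kif23 0.63 (SE 0.21). At an unadjusted p under 0.05 there were 13 of 24 mitosis genes (54.2%), all higher, against 2 of 39 replication genes, although there were 2 higher and 1 lower without mutant 1, and the number higher was 4 without mutant 2 or control 2, and 8 without control 1. Mean log2 signals of the mitosis list were 8.17, 8.13 and 7.72 in mutants 1, 2 and 3, against 7.55, 7.48 and 7.62 in controls 1, 2 and 3, so that every mutant lay above every control, while the replication list overlapped. Gene by gene, 6 of the 24 mitosis genes (25%) did not overlap between groups, all higher. Over all probe sets 8% did so higher and 16.4% in either direction. Of the 24 mitosis genes 9 were within the background range in both groups. The difference between the lists was not tested.

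**Figure D4:**
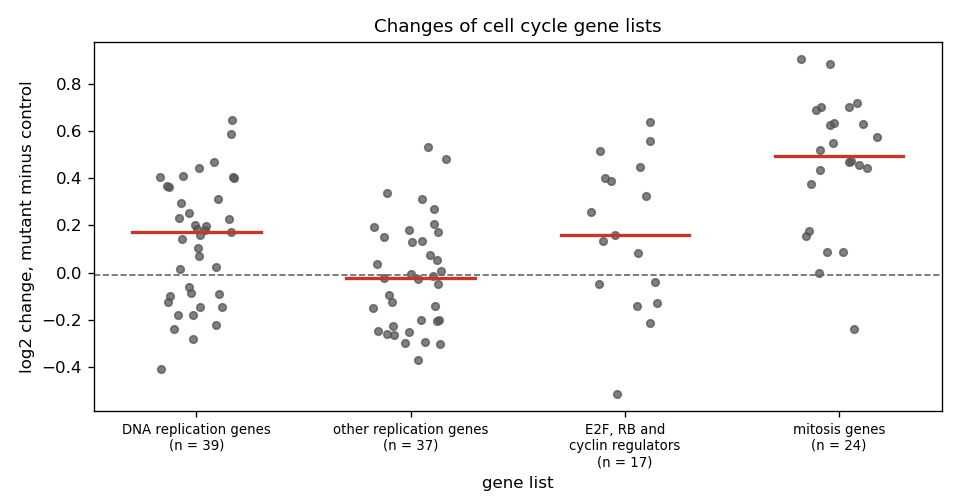
Log2 change, mutant minus control, of each measured gene in 4 lists, with red bars at the list medians (0.17, -0.02, 0.16 and 0.50 from left to right) and a dashed line at the median of all probe sets (-0.01). Points are genes, n is their number, and 0 genes in any of the 4 lists passed an adjusted p of 0.05.

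Tissue identity and other cell types were checked with markers. Nr5a1, Star and Cyp11b1, which define steroid-producing cortex, had log2 signals of 17.0 to 18.7 in all 6 animals, and Th, of chromaffin cells, of 15.7 to 16.7, with changes of -0.11 (SE 0.14), -0.01 (SE 0.14), -0.09 (SE 0.14) and -0.26 (SE 0.25), none past the test. Stk4, which encodes MST1, measured 8.14, 8.36 and 8.46 in mutants 1, 2 and 3, against 8.32, 8.66 and 8.94 in controls 1, 2 and 3 (log2 change -0.32, SE 0.19, limma adjusted p = 0.623), and the sources used here do not say whether its probes cover the deleted exons, so it does not check the labels. Control 1 lay below mutants 2 and 3. No gene of the cell type lists passed the test, the smallest adjusted p being 0.0795 for the macrophage receptor Cd163 (log2 change 0.91, limma), whose control mean was within the background range. Under alternatives, Cd163 passed when only probe sets above the median signal were tested (adjusted p = 0.0319, limma), and the endothelial junction gene Cdh5 passed with a variance trend and robust prior (adjusted p = 0.0448, limma). Adrenal cortex list means were 17.42, 17.55 and 17.59 in mutants 1, 2 and 3, against 17.60, 17.61 and 17.65 in controls 1, 2 and 3, so every mutant lay below every control, with 8 of 10 markers lower. Of the 7 fibroblast and capsule markers measured 6 had higher means in mutants (list median 0.69). Fibronectin, Fn1, had the largest change of these, 1.35 (SE 0.36). Fn1, and Cdh5 and Acta2 below, were picked for a small unadjusted p in these data. Fibroblast and capsule list means were 11.42, 11.12 and 10.51 in mutants 1, 2 and 3, against 10.38, 10.10 and 10.64 in controls 1, 2 and 3. Endothelial list means were 13.52, 13.60 and 13.51 in mutants 1, 2 and 3, against 13.28, 13.00 and 13.18 in controls 1, 2 and 3, with every mutant above every control. Here 6 of 7 markers were higher (list median 0.41), and Cdh5 had the largest change (0.60 (SE 0.15)). Smooth muscle and pericyte list means were 10.42, 10.13 and 10.16 in mutants 1, 2 and 3, against 9.83, 9.64 and 9.97 in controls 1, 2 and 3, again without overlap. In this list 5 of 7 markers were higher (list median 0.46), among them Acta2 (change 0.78 (SE 0.20)). Macrophage markers had higher means in 7 of 7 cases and in 4 of 7 without mutant 2, with list means of 9.85, 10.12 and 9.55 in mutants 1, 2 and 3, against 9.53, 9.46 and 9.55 in controls 1, 2 and 3, and lymphocyte markers in 6 of 6, of which 4 were within the background range in both groups. Fat markers had list means of 12.27, 9.75 and 9.19 in mutants 1, 2 and 3, against 7.80, 9.60 and 10.79 in controls 1, 2 and 3, so mutant 1 was highest. In all, 7 of 7 means were higher with all animals and 3 of 7 without mutant 1. Chromaffin list means were 14.20, 14.09 and 14.23 in mutants 1, 2 and 3, against 14.40, 15.16 and 14.03 in controls 1, 2 and 3, with 6 of 6 markers lower, and 4 of 6 without control 2. Of 5 erythroid genes 2 were measured, Alas2 (change 0.60 (SE 0.27)) and Slc4a1 (change -0.23 (SE 0.16)). Defining kidney markers other than Nphs1 were within the background range in both groups. The part that these cell types had in the replication gene values was not tested.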

How the data were processed

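The authors deposited a log2 signal for every probe set in each animal, a scale inferred from the range of the values. Per the submitters' processing notes, the authors used Transcriptome Analysis Console 4.0; the sources used here do not give its background correction, summarisation or normalization, and a normalization that equalises whole arrays would remove a change common to most genes. Array medians lay between 6.76 and 6.83, and no normalization was added; 3 animals per group limit the precision. Of 28846 probe sets, 6640 control probe sets were left out, and 22206 were tested; 19572 of these had 1 gene symbol in the platform's annotation, 0 several and 2634 none, and all 19572 matched the NCBI gene table of GRCm38.p6. Mean signals of the intron control probe sets were 5.73, 5.45 and 5.71 in mutants and 5.47, 5.40 and 5.84 in controls. Mutant minus control was fitted on the 6 arrays with limma 3.58.1 (lmFit, eBayes; R 4.3.3), with no covariate and no filter on low signal. Tests were two-sided, Benjamini-Hochberg adjustment was over 22206 probe sets, and the threshold was 0.05. The background range is that of the means of 23 background probe sets. The members, lists and tests were chosen with earlier results of these data known. Genes were named as the 12 members of smallest unadjusted p and the members of highest and lowest signal. Mcm2, Pcna, Cdc6, Cdt1, Rrm2, Tyms, Tk1, Ccne1, Ccne2 and E2f1 were named in every case. So were Nr5a1, Star, Cyp11b1, Th, Mki67, Top2a and Stk4. From each other list, up to 3 genes of smallest unadjusted p in these data were named. Alternatives were each animal left out, the replicate number as a block, array weights, a variance trend with robust eBayes, quantile normalization, a shift of arrays to one median, tests limited to probe sets with 1 symbol or above the median signal, averaging of probe sets per gene, and an adjusted p under 0.1.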

Additional observations from a re-analysis of the deposited data

How the results depend on the processing

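The count of DNA replication genes past the test was 0 as reported and 0 under every alternative run, including an adjusted p under 0.1, and the smallest adjusted p over the 39 genes and these alternatives was 0.215 (Mcm3, limma, without mutant 3). Over all probe sets the number called ran from 1 to 175 across these settings, the highest with a variance trend and robust prior and the lowest without any 1 of the controls or with the replicate block, against 16. The median log2 change of the list was 0.17 and lay between 0.087 (without mutant 2) and 0.20 (without control 1) when single animals were left out, 0.16 after quantile normalization, 0.15 after a shift to a common median and 0.15 with array weights. The number of genes with higher means ran from 23 to 27 of 39 in the settings that tested all of them. The count at an unadjusted p under 0.05 was 2, both higher, and ran from 1 (without mutant 1) to 6 (without mutant 3); the number lower was 0 throughout. All 273 alternative values of the 20 named genes kept the reported direction, and 0 were called. Most of these genes were named for a small unadjusted p in the same data. Several settings, such as the variance trend and the replicate block, leave the change itself as it was. This agreement therefore cannot show that directions over the list are stable. Among all 39 genes, leaving out 1 animal turned the sign for 8, all of them outside the named genes. Replicate numbers are shared between the groups. Deviations of same-numbered animals from their group means correlated at -0.09, 0.08 and -0.07, and only mutant 2 correlated best with its own number. With 3 animals per group such correlations constrain one another, so they cannot decide whether the numbers pair the animals. With the replicate block, 0 genes of the list passed, 3 were past an unadjusted 0.05, the median change was 0.17, and 1 probe set passed over all. Depth has no counterpart on arrays: 13 of the 39 genes were within the background range in both groups, as were 11654 of 22206 probe sets.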
